A study of Arabidopsis thaliana with 35 samples.

Results

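The genes described here are 9 genes of phloem identity, chosen by their identifiers from the 32833 genes in the count tables: *APL* (AT1G79430), *SUC2* (AT1G22710), *SEOR1* (AT3G01680), *SEOR2* (AT3G01670), *OPS* (AT3G09070), *CVP2* (AT1G05470), *SMXL3* (AT3G52490), *SMXL4* (AT4G29920) and *SMXL5* (AT5G57130). The rule names the genes and applies no threshold to their values. RNA was sequenced from whole *Arabidopsis thaliana* seedlings, 7 d old, in 35 libraries of 9 conditions. The 3 lines were grown at 22 °C in 16 h of light and 8 h of dark: *er* XVE:ER, in which an *er* mutant (mutated in the gene for the receptor kinase ERECTA, ER) carries an estradiol-inducible *ER* transgene, XVE:EPFL4, in which the wild type carries an inducible transgene for the secreted peptide EPFL4, and WT, which carries no XVE transgene. Each line was sampled uninduced (0 h, moved to mock plates) and after 3 h and 8 h on plates with 5 mM estradiol, with 4 libraries per condition except *er* XVE:ER at 3 h, which has 3 (numbered 1, 2 and 4). XVE is a synthetic activator that turns on its target promoter when estradiol is present, and the study's methods name the 35S promoter, which is active in most cells, for the *ER* line. Seedlings were pooled within a library. No mock plates at 3 h or 8 h were analysed here, so hours since transfer, time of day and estradiol cannot be told apart within a line, and the WT series holds all of them without a transgene.

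Phloem is the vascular tissue that carries sugars and signals from leaves to the rest of the plant. Its conducting cells, the sieve elements, lose their nucleus as they mature and are kept alive by neighbouring companion cells, which load sucrose. Sieve elements arise from vascular stem cells: early regulators at the plasma membrane and in the nucleus set the protophloem lineage, the transcription factor APL secures phloem identity, and genes for transport and for the protein filaments of sieve elements mark the mature cells.

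All 9 genes were detected in every library and passed the filter on low counts in every comparison. Per kilobase of exon, *SUC2* was the most abundant, with condition means of 55.9 to 91.7 CPM per kb (counts scaled to library size, divided by exon length). *SEOR1* followed at 13.2 to 19.6, *SEOR2* at 10.4 to 18.6 and *APL* at 9.35 to 12.3 CPM per kb. *OPS* (5.1 to 8.29), *SMXL5* (5.37 to 7.15) and *CVP2* (4.7 to 6.37) were lower, then *SMXL3* (2.67 to 3.77) and *SMXL4* (1.49 to 3.13 CPM per kb). The highest condition mean was 1.31 times the lowest for *APL* and 2.09 times the lowest for *SMXL4*, with the other 7 genes in between. The libraries of the highest and the lowest condition did not overlap for any gene except *SEOR1* and *SMXL5*. These conditions were picked for each gene as the ends of 9 means, which favours such a separation. The share of all genes separated in this way was not computed, so it is not a result about the 9 genes. When the 9 conditions were ordered by mean, all 8 pairs of neighbours had overlapping libraries for every gene except *SMXL4*, for which 7 of 8 did. Neighbours in such an order are the closest in mean, so their overlap does not show that the conditions were alike. In whole seedlings, fewer phloem cells and less RNA per cell cannot be told apart.

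**Figure D1:**
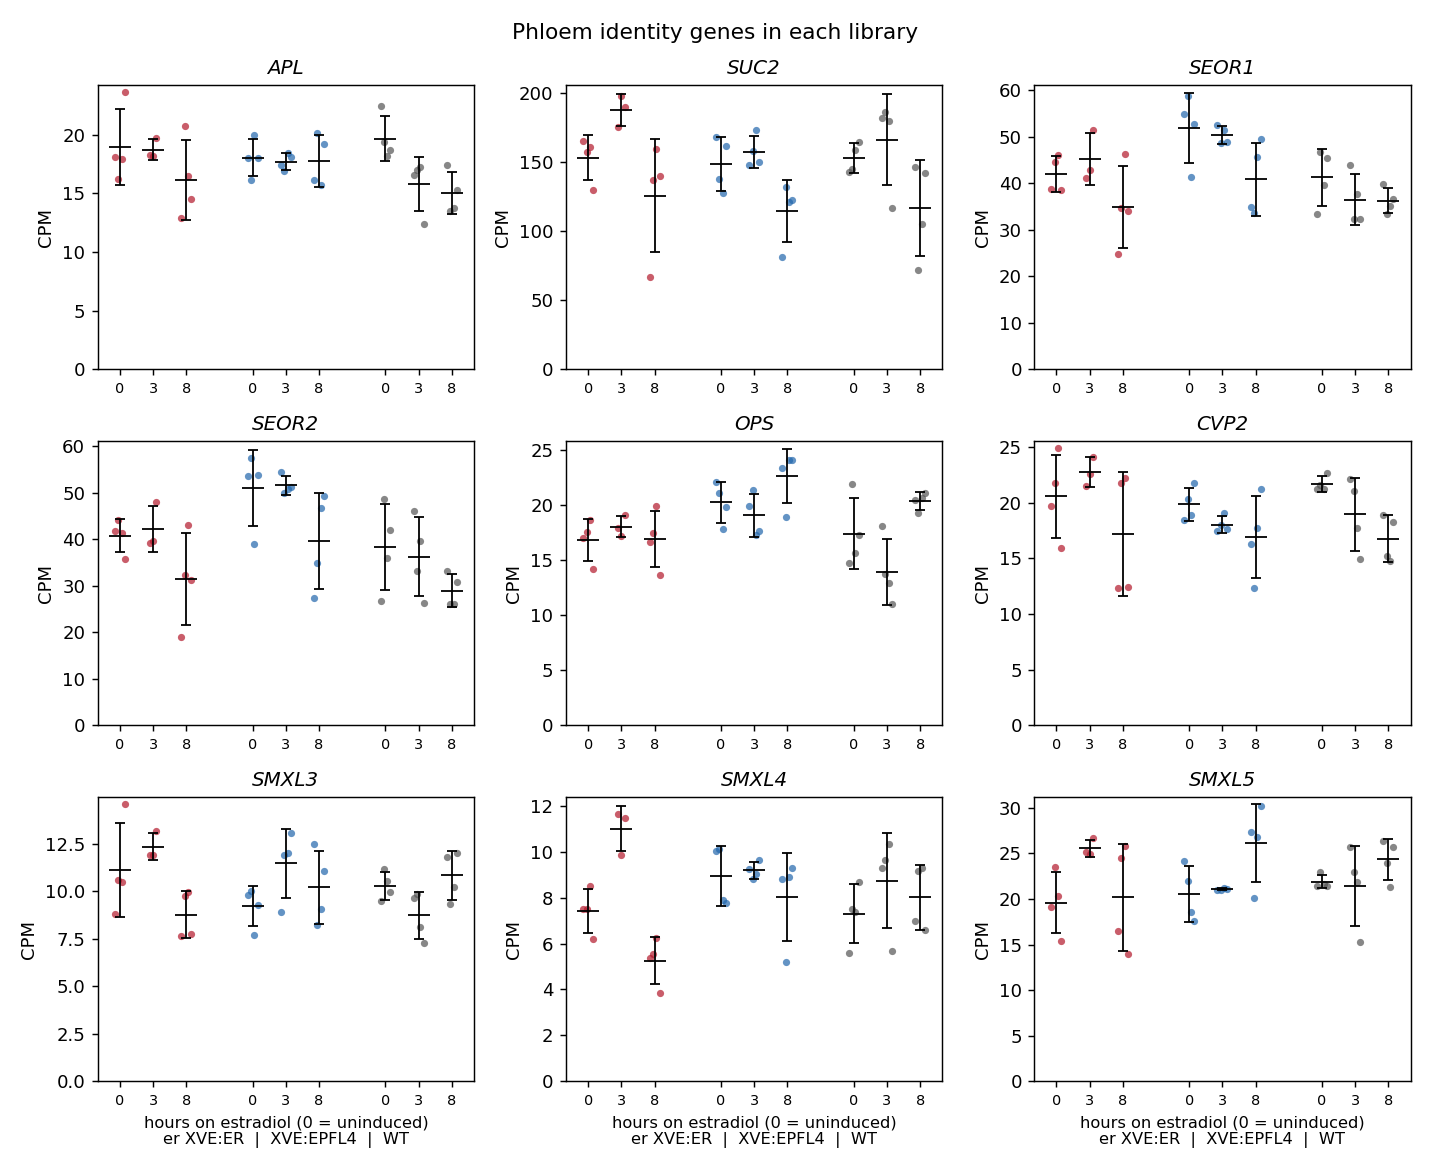
Levels of the 9 genes in each library, in CPM (y axis, from 0), for *er* XVE:ER (red), XVE:EPFL4 (blue) and WT (grey) at 0, 3 and 8 h on estradiol (x axis). Points are libraries, and bars are mean and SD. *SMXL4* in *er* XVE:ER at 8 h (mean 5.26 CPM) lies below the same line at 3 h (mean 11 CPM). The highest and the lowest condition of a gene, picked as the ends of 9 means, overlap only for *SEOR1* and *SMXL5*.

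The libraries held 18224765 to 25089853 counts. Each transgene rose on estradiol in the line labelled as carrying it. *ER* was at 52 ± 11.1, 360 ± 93.3 and 1079 ± 354 CPM in *er* XVE:ER at 0, 3 and 8 h (SD, n = 4, 3 and 4), and *EPFL4* was at 2.46 ± 0.85, 1292 ± 314 and 1751 ± 952 CPM in XVE:EPFL4 (SD, n = 4 each). In WT at 0, 3 and 8 h, *ER* was at 75.9 ± 8.43, 96 ± 10.5 and 87.1 ± 10.5 CPM and *EPFL4* at 0.677 ± 0.119, 0.582 ± 0.362 and 0.764 ± 0.25 CPM (SD, n = 4 each). In uninduced *er* XVE:ER 4, *ER* was at 68.5 CPM, against 44.5 to 48 CPM in its companions. That level lies within the range of uninduced WT (68.1 to 84.1 CPM), and its cause was not tested. Across all genes, 4 libraries correlated best with a library of another condition: uninduced *er* XVE:ER 4, WT 3 h 4, *er* XVE:ER 8 h 1 and XVE:EPFL4 8 h 1. The summed level of the morning clock genes *CCA1*, *LHY* and *RVE8* was 100.1 CPM in uninduced *er* XVE:ER 4, against 557.4 to 596.1 CPM in the other 3 libraries of that condition, and 68.41 CPM in WT 3 h 4, against 210.5 to 267.4 CPM in its companions. Counts of called genes are therefore also given without these libraries where that changes them. The part of the time of day in the results was not tested.

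Tests used the quasi-likelihood method of edgeR, and a call required a Benjamini-Hochberg adjusted p below 0.05, with the adjustment over every gene tested. In *er* XVE:ER, 1 of the 9 genes was called at 3 h over uninduced (16.3% of all genes tested were), 0 at 8 h over uninduced (16.2% of all genes) and 2 at 8 h over 3 h (15.4% of all genes). In XVE:EPFL4 the counts were 0 of 9 at 3 h over uninduced (34% of all genes), 0 at 8 h over uninduced (35.8%) and 1 at 8 h over 3 h (26.8%). In WT they were 0 at 3 h over uninduced (23.5%), 2 at 8 h over uninduced (33.7%) and 1 at 8 h over 3 h (16%). At an unadjusted p below 0.05, the 4 comparisons with a count of 0 held 1, 1, 3 and 1 of the 9 genes in that order, and DESeq2 called 0 in each. Over all genes, 6080 of 19824, 8651 of 19969, 8998 of 19990 and 7183 of 19740 had such a p, in the same order. The median log2 fold change of the 9 genes lay between -0.40, in *er* XVE:ER at 8 h over 3 h, and 0.14, in *er* XVE:ER at 3 h over uninduced. Over all genes tested, the median lay between -0.02 and 0.02.

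**Figure D2:**
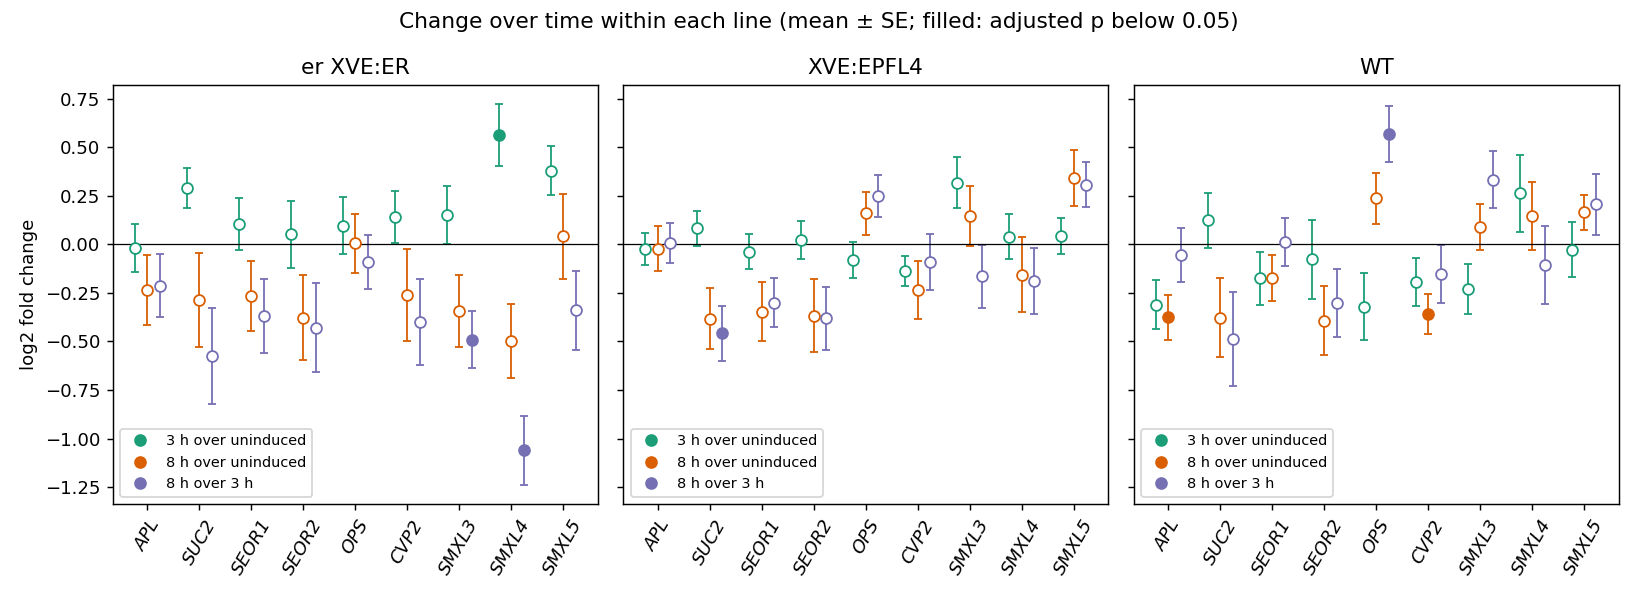
Log2 fold changes (y axis) of the 9 genes (x axis) at 3 h over uninduced, 8 h over uninduced and 8 h over 3 h, in *er* XVE:ER, XVE:EPFL4 and WT. Points are edgeR estimates with SE, filled where the adjusted p is below 0.05. The lowest point is *SMXL4* in *er* XVE:ER at 8 h over 3 h (-1.06), and 7 values are filled.

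In the TAIR10.1 annotation none of the 9 genes overlaps another gene. *APL* (chr1:29877228-29879279, minus strand), a MYB coiled-coil transcription factor required for phloem identity, was called in WT at 8 h. It was at 17.4, 13.5, 13.8 and 15.3 CPM in WT at 8 h, against 22.4, 19.3, 18.1 and 18.7 CPM in uninduced WT. The groups did not overlap, and *APL* fell by 0.38 on the log2 scale (SE 0.11, edgeR adjusted p = 0.0304). The call was kept only when WT 8 h 1 was left out. Without any of the other 7 libraries, the adjusted p was 0.0513 to 0.0855. *APL* was also lower in WT 3 h than in uninduced WT (-0.31, SE 0.13, adjusted p = 0.1002), which did not pass the test. That estimate ran from -0.36 to -0.21 in refits that left out 1 library. WT 3 h 4 held 12.41 CPM, against 16.56 to 17.25 CPM in its companions. In XVE:EPFL4 *APL* averaged 18, 17.7 and 17.8 CPM at 0, 3 and 8 h, with overlapping libraries.

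*SUC2* (chr1:8030587-8033156, minus strand), the sucrose-proton symporter that loads sucrose in companion cells, was called in XVE:EPFL4 at 8 h over 3 h. It was at 81.6, 132, 121 and 123 CPM in XVE:EPFL4 at 8 h, against 148, 158, 173 and 150 CPM at 3 h. The groups did not overlap, although library 1 at 8 h lay far below its companions, and *SUC2* fell by 0.46 on the log2 scale (SE 0.14, edgeR adjusted p = 0.0371). Without replicate 3 the adjusted p was 0.117 and without replicate 4 it was 0.0985, and with all 35 libraries in 1 fit it was 0.0957. Differences of a similar size at 8 h over 3 h did not pass the test in *er* XVE:ER (-0.58, SE 0.25, adjusted p = 0.148) or in WT, where library 2 at 8 h held 72.3 CPM and library 1 held 146 CPM. In *er* XVE:ER at 3 h, *SUC2* was at 175, 198 and 190 CPM, against 165, 157, 161 and 130 CPM in the uninduced libraries. These groups did not overlap, but the adjusted p was 0.076. Without uninduced library 4 it was 0.0392. The level of *SUC2* varied widely at 8 h, with a lowest library of 66.5 CPM (*er* XVE:ER 1).

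Markers of other tissues were also called in XVE:EPFL4 at 8 h over 3 h, where *SUC2* was called and 26.8% of all genes tested were. In XVE:EPFL4 at 8 h over 3 h, 2 of 3 root hair markers fell (summed level 3.099 to 8.607 CPM at 8 h, 16.26 to 18.39 CPM at 3 h), as did 1 of 3 mesophyll markers (12210 to 24720 CPM at 8 h, 21980 to 23110 CPM at 3 h) and 1 of 3 endodermis markers (39.35 to 54.43 CPM at 8 h, 59.92 to 64.61 CPM at 3 h). In the same comparison 1 of 4 cambium markers rose (82.4 to 109.6 CPM at 8 h, 82.72 to 93.07 CPM at 3 h), and 0 of 5 xylem and 0 of 3 epidermis markers were called. In WT at 8 h over uninduced, where *APL* and *CVP2* were called, 2 of 3 mesophyll markers fell (12470 to 15140 CPM at 8 h, 20090 to 26400 CPM uninduced), and so did 2 of 3 endodermis markers (51.1 to 56.83 CPM at 8 h, 72.04 to 80.24 CPM uninduced) and 1 of 3 root hair markers (6.932 to 12.5 CPM at 8 h, 11.91 to 19.52 CPM uninduced). There 1 of 4 cambium markers (76.44 to 85.16 CPM at 8 h, 56.93 to 75.88 CPM uninduced) and 1 of 3 epidermis markers (363.3 to 508.5 CPM at 8 h, 399.8 to 478 CPM uninduced) rose, and 0 of 5 xylem markers was called. Of all genes tested, 33.7% were called in this WT comparison. No marker was at 0 in these conditions. Their part in the results was not tested.

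*SEOR1* and *SEOR2* encode the sieve element occlusion proteins that form filaments in sieve elements. They lie in tandem on chromosome 3 of the TAIR10.1 assembly, both on the plus strand, at chr3:251868-255513 and chr3:247192-250472, with 1395 bases and no annotated gene between them. Their exons share no identical run longer than 12 bases. The 250 bases before each annotated gene start are shown because these neighbours moved together across libraries (RefSeq annotation, TAIR10.1, plus strand, chr3:251618-251867 and chr3:246942-247191). Capitals mark AAAG, the core bound by Dof transcription factors, on either strand.
SEOR1: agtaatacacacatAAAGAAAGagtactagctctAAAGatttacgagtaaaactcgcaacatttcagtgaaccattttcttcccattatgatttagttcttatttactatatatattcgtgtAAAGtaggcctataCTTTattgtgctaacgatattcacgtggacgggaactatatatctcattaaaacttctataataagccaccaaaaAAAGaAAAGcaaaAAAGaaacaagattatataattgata
SEOR2: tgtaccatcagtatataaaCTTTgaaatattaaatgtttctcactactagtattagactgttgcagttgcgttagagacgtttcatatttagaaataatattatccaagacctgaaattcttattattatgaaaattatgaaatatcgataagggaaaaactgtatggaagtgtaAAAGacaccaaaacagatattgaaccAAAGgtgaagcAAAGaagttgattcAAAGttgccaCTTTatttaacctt
AAAG was found at 8 places in the *SEOR1* window and 6 in the *SEOR2* window, counting both strands. The median over 27443 windows before protein-coding genes was 4, and 98% of windows held at least 1. Of the other motifs searched on both strands, the G-box CACGTG (6.49% of windows) was in the *SEOR1* window at position -93, counted from the gene start, and not in that of *SEOR2*. The evening element AAAATATCT (2.36% of windows) and the phosphate-response motif GNATATNC (5.46% of windows) were in neither. A match is a description of the letters and not evidence of binding.

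The levels of the 2 neighbours followed each other closely. Pearson's r of log2 CPM over the 35 libraries, which share conditions and depth scaling, was 0.947, the highest of any pair among the 9 genes. The next were *SUC2* with *CVP2* (0.652), *SUC2* with *SEOR2* (0.645) and *OPS* with *SMXL5* (0.625), and the lowest was *SUC2* with *OPS* (-0.158). These values describe the libraries and carry no test.

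**Figure D3:**
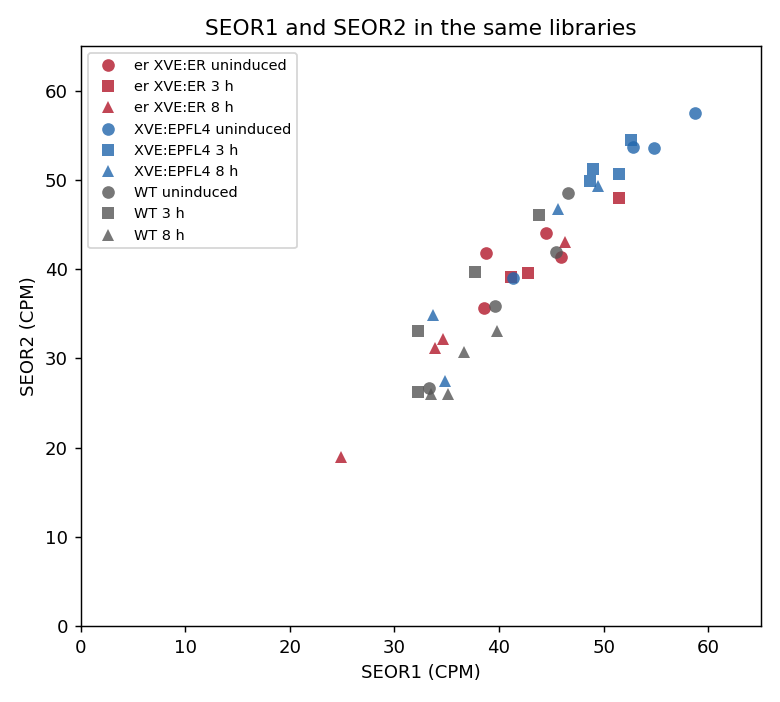
*SEOR2* (y axis) against *SEOR1* (x axis) in CPM, 1 point for each of the 35 libraries, coloured by line and shaped by time. The points lie along a diagonal, from *er* XVE:ER 8 h 1 at 24.9 and 18.9 CPM to uninduced XVE:EPFL4 2 at 58.8 and 57.5 CPM.

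At 3 h *SEOR1* was called as higher in XVE:EPFL4 than in WT, and *SEOR2* was not called. *SEOR1* was at 52.6, 48.7, 51.5 and 48.9 CPM in XVE:EPFL4 at 3 h, against 43.9, 32.2, 37.7 and 32.2 CPM in WT at 3 h. The groups did not overlap, and *SEOR1* was higher by 0.47 on the log2 scale (SE 0.10, edgeR adjusted p = 0.0327). It was the only one of the 9 genes called in this comparison, in which 6.11% of all genes tested were. *SEOR2* was at 54.5, 49.9, 50.7 and 51.3 CPM in XVE:EPFL4 at 3 h, against 46, 33.1, 39.7 and 26.2 CPM in WT at 3 h, again without overlap (0.51, SE 0.15, adjusted p = 0.0689). DESeq2 called 3 of the 9 genes (*SEOR1*, *SEOR2* and *OPS*) and 2364 of all 19828, and the fit of all 35 libraries called 0 of the 9 and 306 of all 20926. The *SEOR1* call was lost without replicate 2 (adjusted p = 0.234) and without replicate 3 (0.201). Without WT 3 h 4, the library that stands apart, 4 were called: *SEOR1*, *SEOR2* and *OPS* as higher and *SUC2* as lower (-0.22). In that refit 5243 of all 20024 genes were called, against 1213 of 19863 with all libraries. The *SEOR* levels in XVE:EPFL4 were similar before induction (54.8, 58.8, 41.3 and 52.8 CPM for *SEOR1* and 53.5, 57.5, 39 and 53.7 CPM for *SEOR2*), when neither *SEOR1* (0.34, adjusted p = 0.102) nor *SEOR2* (0.42, adjusted p = 0.126) passed the test against WT. Root hair markers differed in the same direction at 3 h, with 1 of 3 called and a summed level of 16.26 to 18.39 CPM in XVE:EPFL4, against 10.8 to 15.39 CPM in WT. Their part was not tested.

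*OPS* (*OCTOPUS*, chr3:2768641-2771375, minus strand), a polar membrane protein of the protophloem, and *CVP2* (chr1:1607202-1611840, minus strand), an inositol polyphosphate 5-phosphatase that acts in vein and protophloem patterning, were each called in 1 comparison within WT. The calls come from different comparisons, *OPS* at 8 h over 3 h and *CVP2* at 8 h over uninduced, and the 2 genes were not tested against each other. *OPS* was at 20.5, 19.3, 20.7 and 21.1 CPM in WT at 8 h, against 18.1, 13.8, 12.9 and 11 CPM at 3 h. The groups did not overlap, and *OPS* rose by 0.57 on the log2 scale (SE 0.15, edgeR adjusted p = 0.0293). In this comparison, in which 16% of all genes were called, 2 of 3 mesophyll markers fell (12470 to 15140 CPM at 8 h, 22830 to 25930 CPM at 3 h). The part of these markers was not tested. The adjusted p for *OPS* was 0.133, 0.158 and 0.0825 without replicates 2, 3 and 4. *OPS* averaged 20.4 CPM at 8 h and 17.4 CPM in the uninduced libraries, which held 14.8, 21.9, 15.7 and 17.3 CPM and overlapped with those at 8 h. In *er* XVE:ER *OPS* averaged 16.9, 18.1 and 16.9 CPM at 0, 3 and 8 h.

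*CVP2* was at 18.9, 15.2, 14.8 and 18.2 CPM in WT at 8 h, against 21.3, 21.6, 21.2 and 22.7 CPM in uninduced WT. All 4 libraries at 8 h lay below all 4 uninduced ones, and *CVP2* fell by 0.36 on the log2 scale (SE 0.10, edgeR adjusted p = 0.02505). Only without WT 8 h 1 or WT 8 h 4 was the call kept among the 8 refits that left out 1 library, and without each of the others the adjusted p was 0.0521 to 0.0735. With all 35 libraries in 1 fit it was 0.0861. At 8 h over 3 h in WT *CVP2* did not pass the test (-0.15, adjusted p = 0.552), nor did *OPS* at 8 h over uninduced (0.24, adjusted p = 0.191). In *er* XVE:ER at 8 h the *CVP2* libraries fell apart, at 12.3, 21.8, 22.2 and 12.5 CPM.

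*SMXL3* (chr3:19455505-19459203, minus strand), *SMXL4* (chr4:14632413-14636101, minus strand) and *SMXL5* (chr5:23144947-23149615, plus strand) encode nuclear SMAX1-LIKE proteins required together for phloem formation. *SMXL4* showed the largest change of the 9 genes. In *er* XVE:ER it was at 7.5, 7.5, 8.51 and 6.19 CPM uninduced, at 11.7, 9.88 and 11.5 CPM at 3 h, and at 5.36, 5.55, 6.26 and 3.85 CPM at 8 h. The 3 h libraries were the highest and none overlapped with either other time. *SMXL4* rose by 0.56 on the log2 scale at 3 h over uninduced (SE 0.16, edgeR adjusted p = 0.0315) and fell by 1.06 at 8 h over 3 h (SE 0.18, adjusted p = 0.00415). At 8 h over uninduced it did not pass the test (-0.50, SE 0.19, adjusted p = 0.105).

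In WT *SMXL4* averaged 7.29, 8.74 and 8.01 CPM at 0, 3 and 8 h, and in XVE:EPFL4 it averaged 8.96, 9.19 and 8.04 CPM. The rise of *SMXL4* at 3 h in *er* XVE:ER was called without uninduced library 3 (adjusted p = 0.0303) or 4 (0.02), and not without any of the other 5 libraries, where the adjusted p was 0.0545 to 0.105. The fall of *SMXL4* at 8 h over 3 h was called in 3 of 4 refits that left out a replicate number, and without replicate 2 the adjusted p was 0.0543. Its estimates in those 4 refits ran from -1.16 to -0.90.

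*SMXL3* was at 7.64, 9.73, 9.96 and 7.76 CPM in *er* XVE:ER at 8 h, against 11.9, 11.9 and 13.2 CPM at 3 h. The groups did not overlap, and *SMXL3* fell by 0.49 on the log2 scale (SE 0.15, edgeR adjusted p = 0.04897). This call was close to the threshold. It was lost without the filter on low counts (0.0588), without *er* XVE:ER 8 h 1 (0.0701), and without replicates 1, 2 or 4 (0.154, 0.212 and 0.193). *SMXL5* was at 25.2, 24.9 and 26.6 CPM in *er* XVE:ER at 3 h, against 19.1, 23.6, 20.4 and 15.4 CPM uninduced, without overlap (0.38, SE 0.13, adjusted p = 0.059). Without uninduced library 4, 3 of the 9 genes were called at 3 h over uninduced, namely *SUC2*, *SMXL4* and *SMXL5*, and DESeq2 called the same 3 with all libraries. The calls over all genes also increased, to 6428 of 20178 without uninduced library 4 and to 4208 of 20199 with DESeq2, against 3299 of 20223 in the edgeR test of all libraries.

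Markers of several other tissues moved beside the *SMXL* genes in *er* XVE:ER. Over all genes tested, 15.4% were called at 8 h over 3 h and 16.3% at 3 h over uninduced. At 8 h over 3 h, 3 of 5 xylem markers fell, with a summed level of 64.86, 92.82, 121.9 and 84.15 CPM at 8 h, against 165.8, 152.9 and 159.5 CPM at 3 h. In that comparison 1 of 3 mesophyll markers also fell (15400 to 26140 CPM at 8 h, 22640 to 23960 CPM at 3 h), and no cambium, epidermis, root hair or endodermis marker was called. At 3 h over uninduced, 2 of 4 cambium markers rose (86.5 to 91.21 CPM at 3 h, 56.14 to 68.97 CPM uninduced), as did 2 of 3 epidermis markers (523.9 to 555.4 CPM at 3 h, 468 to 579.1 CPM uninduced). There 1 of 3 endodermis markers fell (60.87 to 68.55 CPM at 3 h, 69.24 to 73.48 CPM uninduced), and no xylem, mesophyll or root hair marker was called. None of these markers was at 0. Their part in the *SMXL* results was not tested.

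Between *er* XVE:ER and WT, edgeR called none of the 9 genes at any time. Uninduced, 0 of 9 were called (0.138% of all genes), at 3 h 0 of 9 (0.0501%) and at 8 h 0 of 9 (0.0253%). At an unadjusted p below 0.05 there were 0, 3 and 1 of the 9 genes in these comparisons, and DESeq2 called 0 in each. Over all genes, 1767 of 20223, 1612 of 19943 and 1232 of 19791 had such a p. Libraries did not overlap for *SMXL3* at 3 h, with 11.9, 11.9 and 13.2 CPM in *er* XVE:ER, against 9.66, 9.86, 8.14 and 7.29 CPM in WT (0.51, SE 0.13, edgeR adjusted p = 0.355). Nor did they for *SMXL4* at 8 h, with 5.36, 5.55, 6.26 and 3.85 CPM in *er* XVE:ER, against 6.98, 9.18, 9.3 and 6.58 CPM in WT (-0.60, SE 0.20, adjusted p = 0.762). *APL* at 3 h also did not overlap (0.25, adjusted p = 0.659). The share of all genes without overlap was not computed, and a line difference was not shown for these genes. Between XVE:EPFL4 and WT, 0 of 9 genes were called uninduced (9.93% of all genes) and 0 of 9 at 8 h (0.00503%). Unadjusted, 2 and 1 of the 9 genes had p below 0.05 (4727 of 19795 and 1358 of 19868 over all genes), and DESeq2 called 0 in each.

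**Figure D4:**
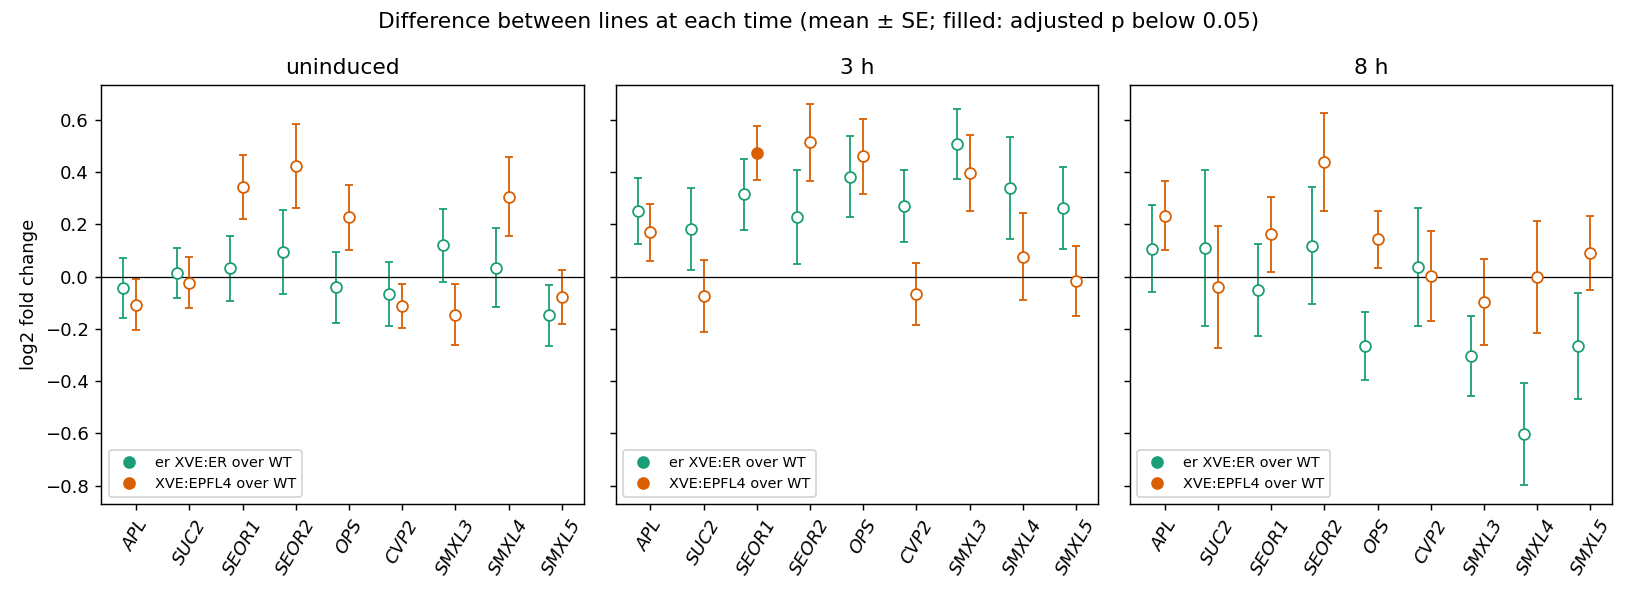
Log2 fold changes (y axis) of the 9 genes (x axis) in *er* XVE:ER over WT and XVE:EPFL4 over WT, uninduced and at 3 h and 8 h. Points are edgeR estimates with SE, filled where the adjusted p is below 0.05. Only *SEOR1* in XVE:EPFL4 over WT at 3 h (0.47) is filled.

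Whether the lines changed differently over time was tested as a difference of their log2 changes, with WT subtracted. None of the 9 genes was called for *er* XVE:ER at 3 h (0.00981% of all genes) or 8 h (0.00985%), or for XVE:EPFL4 at 3 h (2.06%) or 8 h (0.157%) over uninduced. Over all genes, 792 of 20390, 919 of 20302, 3109 of 20326 and 2180 of 20377 had an unadjusted p below 0.05 in these tests, in that order. Of the 9 genes, 0, 1, 1 and 1 did, and DESeq2 called 0 in each. These were *SMXL4* in *er* XVE:ER at 8 h (-0.64, SE 0.26, edgeR adjusted p = 0.972), *SMXL3* in XVE:EPFL4 at 3 h (0.54, SE 0.19, adjusted p = 0.154) and *APL* in XVE:EPFL4 at 8 h (0.35, SE 0.16, adjusted p = 0.459). All 9 estimates for *er* XVE:ER at 3 h were above 0 (0.14 to 0.43), and they share the same WT libraries. WT 3 h 4 and uninduced *er* XVE:ER 4, which stand apart across all genes, are among the libraries of this comparison. The summed level of the 9 genes was 242.2 CPM in WT 3 h 4, against 345.4 to 373.4 CPM in its companions. In uninduced *er* XVE:ER 4 it was 293.9 CPM, against 336.2 to 349.2 CPM, although *APL* and *SMXL3* were highest there. The part of these 2 libraries in the 9 estimates was not tested.

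The change at 8 h over 3 h was compared between the lines after the *SMXL* values had been seen. For *er* XVE:ER it was called in 0% of all genes, and 1362 of 20446 had an unadjusted p below 0.05. *SMXL3* (-0.82, SE 0.20, adjusted p = 0.709), *SMXL4* (-0.95, SE 0.28, adjusted p = 0.709) and *OPS* (-0.66, SE 0.20, adjusted p = 0.709) were among these, by edgeR's test. For XVE:EPFL4 it was also called in 0% of all genes (1862 of 20351 at an unadjusted p below 0.05), and among the 9 genes *SMXL3* alone had p below 0.05 (-0.48, SE 0.22, adjusted p = 0.542). DESeq2 called 9 genes for *er* XVE:ER and 60 for XVE:EPFL4, and none of the 9 phloem genes was among them. A difference between the lines was thus not shown for the *SMXL4* fall at this depth and number of libraries.

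Several results that were not called with all libraries were called in refits without a single library or without a replicate number. Leaving out a replicate number removes a library from each group. Without WT 3 h 4, *SUC2* (0.26) and *SMXL4* (0.42) were called at 3 h over uninduced WT. In WT at 8 h over uninduced, *SEOR2* (-0.53) was called without uninduced library 1 and *OPS* (0.36) without uninduced library 2. In *er* XVE:ER, *SMXL5* (0.49) was called at 3 h over uninduced without uninduced library 2, and *SMXL4* (-0.57) at 8 h over uninduced without uninduced library 4. In XVE:EPFL4 at 3 h over uninduced, *SMXL3* (0.42) was called without library 1 at 3 h. At 8 h over uninduced in XVE:EPFL4, *SEOR1* (-0.44) was called without uninduced library 3, and *SUC2* (-0.46) and *SMXL5* (0.45) without library 2 at 8 h. At 8 h over 3 h in XVE:EPFL4, *OPS* (0.38) and *SMXL5* (0.41) were called without replicate 2. The counts over all genes moved as well. At 3 h over uninduced WT, 7324 of 19912 genes were called without WT 3 h 4, against 4632 of 19740 with all libraries. At 8 h over uninduced in *er* XVE:ER, 4952 were called without uninduced library 4, against 3203. Leaving out a library gave fewer calls over all genes in WT at 8 h over uninduced (5669 without uninduced library 1 and 5371 without uninduced library 2, against 6675) and in XVE:EPFL4 at 3 h over uninduced (5729 without library 1 at 3 h, against 6784). In XVE:EPFL4 at 8 h over uninduced there were 6195 without uninduced library 3 and 7409 without library 2 at 8 h, against 7153, and at 8 h over 3 h 4615 without replicate 2, against 5395. In XVE:EPFL4 over WT at 3 h, 1213 genes were called with all libraries, 1 without replicate 2, 1 without replicate 3 and 4239 without replicate 4, and in *er* XVE:ER at 8 h over 3 h, 3085 were called with all libraries and 544 without replicate 2.

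Other phloem genes, taken from lists chosen by function, moved both ways. Of 14 further regulators of sieve elements and protophloem, 3 of 13 tested fell in *er* XVE:ER at 8 h over 3 h and none rose. In that comparison 15.4% of all genes tested were called. *NEN4*, an exonuclease of sieve element enucleation, fell by 1.69 on the log2 scale (SE 0.37), *CVL1*, a paralogue of *CVP2*, by 0.68 and *MAKR5*, a membrane protein of CLE signalling, by 0.51. The median of the list was -0.45, against 0.005 for all genes. At 3 h over uninduced 1 of 13 rose in *er* XVE:ER, which was *CVL1* (0.71), and 16.3% of all genes were called. In XVE:EPFL4 at 8 h over 3 h, where 26.8% of all genes were called, 2 of 13 fell. These were *NAC045* (-1.21), a factor of sieve element enucleation, and *RPK2* (-0.35), a receptor kinase. In WT at 8 h over 3 h *BAM3*, a receptor kinase of the protophloem, rose by 0.45 and *CVL1* fell by 0.74 (16% of all genes called).

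Among 13 genes of companion cells and phloem transport, the sucrose exporter gene *SWEET12* rose at 8 h over uninduced in *er* XVE:ER (log2 change 1.89, SE 0.16), in XVE:EPFL4 (1.39, SE 0.15) and in WT (1.86, SE 0.16). *OPT3*, a transporter of iron in phloem loading, also rose in *er* XVE:ER (1.56), XVE:EPFL4 (0.76) and WT (1.01), and *NAKR1*, a companion cell protein of long-distance transport, fell in *er* XVE:ER (-0.69) and WT (-0.82). These comparisons cover 2 genes higher and 1 lower of 11 tested in *er* XVE:ER, 2 higher and 3 lower of 12 in XVE:EPFL4, and 2 higher and 2 lower of 11 in WT. Of all genes tested, 16.2%, 35.8% and 33.7% were called in them, in that order. *AKT2*, a phloem potassium channel, fell at 8 h over 3 h in *er* XVE:ER (-1.35) and XVE:EPFL4 (-0.61). There 3 of 12 and 5 of 12 genes of this list fell and 2 of 12 rose in each line, and 15.4% and 26.8% of all genes were called.

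The relatives of the transporters and of the SMXL proteins also changed in WT. Of the 4 other *SUC* genes, *SUC5* fell at 3 h (-1.22) and at 8 h (-1.61) over uninduced WT, and *SUC1* rose at 3 h (0.43), while *SUC2* was called at neither time. Among the 5 other genes of the *SMXL* family, *SMXL6* fell at 3 h (-0.55) and 8 h (-0.59) in WT, *SMXL7* rose at 3 h (0.76) and *SMXL8* rose at 8 h (0.99), so that 3 of 5 were called at each time (23.5% of all genes at 3 h and 33.7% at 8 h). In XVE:EPFL4 at 3 h over uninduced all 5 were called, with 3 higher and 2 lower, where 34% of all genes were. The difference between these genes and *SMXL3*, *SMXL4* and *SMXL5* was not tested. The 6 PEAR and related Dof factors, which act early in phloem cells, were called both ways. *TMO6* fell over uninduced at 3 h (-0.42) and 8 h (-0.83) in WT and at 3 h (-0.52) and 8 h (-0.55) in XVE:EPFL4. It also fell at 8 h (-0.51) in *er* XVE:ER. Of the 6, 0 were higher and 1 lower in WT at 3 h, and 1 higher and 1 lower at 8 h (23.5% and 33.7% of all genes called). In XVE:EPFL4 1 was higher and 2 lower at 3 h, and 1 higher and 1 lower at 8 h (34% and 35.8%). In *er* XVE:ER 0 were called at 3 h (16.3%) and 2 were lower at 8 h (16.2%). Of the 5 phloem-expressed *CLE* peptide genes, 4 were tested. In WT *CLE44* rose (1.00) and *CLE25* fell (-0.53) at 3 h, and 2 were higher and 1 lower at 8 h over uninduced. Over uninduced, 1 was higher at 3 h and 2 at 8 h in *er* XVE:ER, and 1 at each time in XVE:EPFL4. The shares of all genes called there are those given for the Dof factors. At 8 h over 3 h, 1 was higher in XVE:EPFL4 (26.8% of all genes called), and 0 were called in *er* XVE:ER (15.4%) and WT (16%). *CLE41* (0.40) was higher in XVE:EPFL4 than in WT before induction (9.93%).

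The genes whose log2 CPM ran most like that of a member were found by Pearson's r over the 35 libraries, among 18863 other genes with a mean of at least 1 CPM. With the members themselves left out of the search, *BGLU33* was the nearest to *SEOR2* (r = 0.952) and to *SEOR1* (0.928). The r between *SEOR1* and *SEOR2* was 0.947. *HMGS* (0.878) followed for *SEOR2* and *NS2* (0.851) for *SEOR1*. *SUC2* ran with *TLP18.3* (0.874), *PGL5* (0.864) and AT2G42750 (0.856), and *CVP2* with AT4G19500 (0.853), *SKOR* (0.821) and *ARF2* (0.82). *OPS* ran with *CHR1* (0.845), *SMXL4* with *HAP8* (0.855), *TPR3* (0.855) and *TPS1* (0.845), and *SMXL5* with *EMB1865* (0.787). *APL* and *SMXL3* had no such close companion, with highest values of 0.674 and 0.702. These values describe the libraries, which share conditions and depth, and were not tested.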

How the data were processed

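RNA was sequenced from pooled seedlings of 3 lines at 3 times. Per the labels, the authors aligned reads to TAIR10 with STAR 2.7.11a and deposited raw read counts per gene. Strand setting and read trimming are not given in the sources used here. No sample was excluded, and replicate numbers come from the labels.

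Counts were analysed in R 4.3.3 with edgeR 4.0.16: filterByExpr (minimum count 10, minimum total 15), TMM scaling and the quasi-likelihood test over all genes, with Benjamini-Hochberg adjustment. A fit held only the groups compared, except that *er* XVE:ER at 3 h and uninduced and uninduced WT shared 1 fit of 11 libraries for the comparisons among them within a time or line. DESeq2 1.42.0 was an alternative, with other filters, scalings and sample sets. The procedure was tested on simulated counts. For CPM, the TMM factors came from all 35 libraries together, and a prior count of 2 was added before taking log2. Whether the libraries come from separate cultures is stated only as biological repeats, so p-values measure the spread between libraries.

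Coordinates and exon lengths come from RefSeq TAIR10.1, which matched 32548 of 32833 gene identifiers. The genes and gene lists were chosen with earlier results of these data known. Named genes were all 9 members, up to 3 genes of largest change per list among those called, and the 3 genes most like each member.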

Additional observations from a re-analysis of the deposited data

Results flagged for a closer look

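In 5 of 72 sets of 4 libraries, 1 library of a gene lay far from the other 3. Chance gives about 1 in 20 such sets. Of the 5, WT 3 h 4, which also stands apart across all genes, held 12.41 CPM of *APL*, against 16.56 to 17.25 CPM in its companions, and 117.1 CPM of *SUC2*, against 179.9 to 186.5 CPM. XVE:EPFL4 8 h 2 held 18.98 CPM of *OPS*, against 23.38 to 24.16 CPM, and 5.179 CPM of *SMXL4*, against 8.795 to 9.299 CPM. Uninduced WT 2 held 22.96 CPM of *SMXL5*, against 21.44 to 21.65 CPM.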

How the results depend on the processing

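None of the results listed for the 9 genes changed direction where edgeR's unadjusted p was below 0.05, in any alternative run. Of 35 such results 8 were called, and of 136 others 57 changed sign under at least 1 alternative and 7 were called under at least 1. In 99 planned refits, 1 library was left out of the comparisons with uninduced libraries of the same line, and 1 replicate number, thus a library of each group, out of the others. Without 1 library, the number of the 9 genes called was 0 to 2 for WT 3 h over uninduced, 0 to 2 for WT 8 h over uninduced, 0 to 3 for *er* XVE:ER 3 h over uninduced, 0 to 1 for *er* XVE:ER 8 h over uninduced, 0 to 1 for XVE:EPFL4 3 h over uninduced and 0 to 2 for XVE:EPFL4 8 h over uninduced. Without 1 replicate number, it was 0 to 1 for WT 8 h over 3 h, 0 to 2 for *er* XVE:ER 8 h over 3 h, 0 to 3 for XVE:EPFL4 8 h over 3 h and 0 to 2 for XVE:EPFL4 over WT at 3 h. In the other comparisons these refits called 0. The cause was not tested.

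Replicate numbers were not taken to pair the libraries, since no 2 groups tested directly against each other had every correlation between libraries of the same number over 0.1. Uninduced *er* XVE:ER and WT 3 h did (0.168 to 0.445, 4 pairs), which are tested together only in the difference of the 3 h changes between lines, where the replicate block called 0 of the 9 genes, as without it. With the replicate block, 0 of 9 genes were called in *er* XVE:ER at 3 h over uninduced, against 1, and 4 of 9 (*SUC2*, *SEOR1*, *SEOR2* and *SMXL4*) at 8 h over 3 h, against 2. In the fit of all 35 libraries, 1 was called in WT at 8 h over uninduced, against 2, 1 in *er* XVE:ER at 8 h over uninduced, against 0, 0 in XVE:EPFL4 at 8 h over 3 h, against 1, and 0 in XVE:EPFL4 over WT at 3 h, against 1. DESeq2 called 3 in *er* XVE:ER at 3 h over uninduced and 3 in XVE:EPFL4 over WT at 3 h, against 1 each. Without the filter on low counts, 1 was called in *er* XVE:ER at 8 h over 3 h, against 2. The calls over all genes under the block, the 35-library fit and the unfiltered run are not listed here. The counts from these runs are therefore not read as particular to the 9 genes. Leaving out the libraries nearest to another condition, an alternative chosen after seeing the data, gave 2 in WT at 3 h over uninduced (*SUC2* and *SMXL4* as higher), against 0, 3 in *er* XVE:ER at 3 h over uninduced, against 1, 1 in *er* XVE:ER at 8 h over 3 h, against 2, and 4 in XVE:EPFL4 over WT at 3 h, against 1. The calls over all genes in these refits were 7324, 6428, 3596 and 5243 in that order, against 4632, 3299, 3085 and 1213. The lowest count of any of the 9 genes in a library was 73, and the number of libraries, 3 or 4 a group, limits the precision.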
